A study of Homo sapiens with 4 samples.

Results

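Kinesins are the motor proteins that walk along microtubules or take them apart. Their genes were found by symbol, as every row named KIF or KIFC followed by a number, an optional letter from A to C and further digits. This gave 42 of the 42113 gene models, of which 33 had a mean of at least 30 normalized counts over the 4 libraries and are called measured here. The cells were A549, a human lung cancer line in long-established culture, and each group gave 1 RNA sequencing library. The groups were LIMA1 shRNA cells given 10 µM nutlin-3a, control shRNA cells given 10 µM nutlin-3a, untreated LIMA1 shRNA cells and untreated control shRNA cells. All 4 groups had been infected with a lentivirus that expresses a short hairpin RNA (shRNA), and RNA was extracted 24 h after treatment. The sources used here give neither the hairpin sequences nor whether the lines were single clones. Nutlin-3a frees p53 from its ubiquitin ligase MDM2, LIMA1 encodes the actin-binding protein EPLIN, and the stated question was how its knockdown changes the genes that p53 acts on.

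In a dividing cell one group of kinesins builds the bipolar spindle, moves chromosomes and assembles the midzone where the cell is cut. Their genes are transcribed mainly in G2 and mitosis. Another group carries vesicles, mitochondria and ciliary cargo at all times. Active p53 induces p21, which lets the DREAM complex form, and DREAM is known to repress many cell division genes through a promoter element called the cell cycle genes homology region (CHR). The neighbouring CCAAT box, bound by the factor NF-Y, is often needed for the activity of such promoters. The 33 measured kinesins were sorted by textbook function into 13 mitotic, 11 transport and 9 with dual or other roles. The classes were chosen with earlier results of these data known.

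The deposited values mostly behave as fragments scaled by 1 factor in each library and are not per gene length, so they are called normalized counts. In the 4 libraries 85.5% to 86.3% of the checked values were whole fragments. Libraries held 15.2 and 15.8 M fragments with nutlin-3a (LIMA1 shRNA and control shRNA) and 16.5 and 16.7 M untreated. A difference is that of log2(normalized count + 1), and a gene is called higher from 1 upward and lower from -1 downward. With no replicates there is no test and no p-value. The intervals given are exact Clopper-Pearson 95% intervals of the ratio of fragments, rounded to whole numbers, without the added 1. They cover counting error only and treat every value as a count. LIMA1 stood at 133 (LIMA1 shRNA) and 866 (control shRNA) with nutlin-3a, against 68.3 (LIMA1 shRNA) and 416 (control shRNA) untreated normalized counts. Both libraries titled siLIMA1, called LIMA1 shRNA here, were thus low in it. CDKN1A, the p21 gene, stood at 48106 (LIMA1 shRNA) and 34078 (control shRNA) with nutlin-3a, against 1178 (LIMA1 shRNA) and 1066 (control shRNA) untreated. Of the epithelial markers, KRT8 and KRT18 lay between 55419 and 82811 normalized counts and CDH1 between 2464 and 4154, EPCAM between 31.1 and 229. The lung lineage markers NKX2-1, SFTPB and SFTPC had at most 1.98. Leukocyte and endothelial markers had at most 4.71, COL1A2 was at 0 in all 4 libraries, and COL1A1 lay between 19.3 and 70.7.

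Promoter windows were taken from RefSeq (GRCh38.p14, a later build than the hg19 of the submitters' processing notes) and matched by symbol, from 250 bases before to 50 after each start site. They cover 28 of the 33 measured kinesins, 13 mitotic, 8 transport and 7 of the third class. They were searched on both strands for the CHR as TTTGAA or TTCGAA, for the CCAAT box as CCAAT, and for an E2F site as TTTCCCGC, TTTCGCGC, TTTGCCGC or TTTGGCGC. A gene with several start sites counts if any of its windows holds the word. No matches of different motifs overlapped in the kinesin windows. A CHR word was found in 11 of 13 mitotic kinesins, against 1 of 8 transport kinesins and 19.5% of the 27305 genes with a window. Of the 522 measured genes with a window that were lower with nutlin-3a in control shRNA cells, 32.2% held one. A CCAAT word was found in 11 of 13 mitotic and 3 of 8 transport kinesins, against 39.7% of all genes. Both words together were in 10 of 13 mitotic kinesins, in 1 of 8 transport kinesins (KIF5B) and in 7.85% of all genes. KIF4A and its close copy KIF4B are both among the 10, each with 19 bases between the words. The E2F words were in 1 of 13 mitotic kinesins (KIF15) and 0 of 8 transport kinesins, against 3.99% of all genes. Among the 522 measured genes lower with nutlin-3a in control shRNA cells, 57.1% held a CCAAT word, 21.5% both words and 19.2% an E2F word. Over all 9157 measured genes with a window, the shares were 15.6% for CHR, 43.6% for CCAAT, 6.67% for both and 6.84% for E2F. A match is a description of letters and not a shown binding site.

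**Figure D1:**
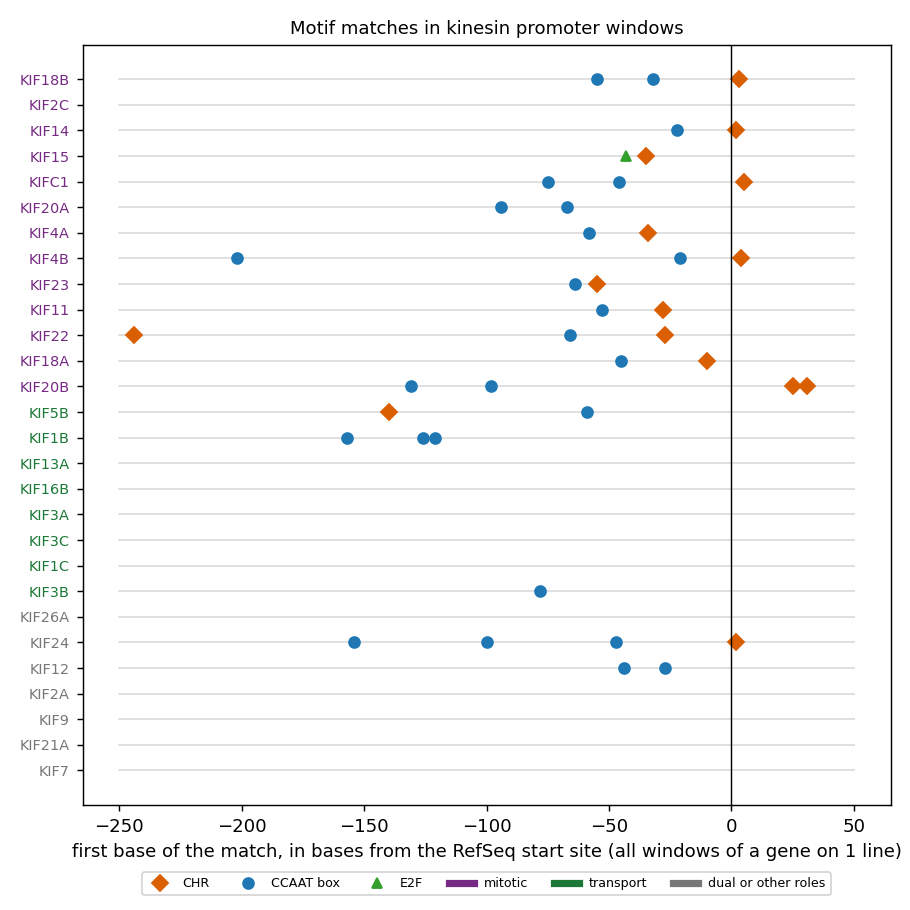
Positions of motif matches in the promoter windows of 28 measured kinesins; the x axis gives the first base of each match in bases from the RefSeq start site, and gene names are coloured by class. In the mitotic genes the CHR matches lie from -55 to 31, apart from 1 at -244 in the other window of KIF22. That match is the same KIF22 word as the one at -27, placed from another start site. A CHR match lies downstream of a CCAAT match in 10 mitotic genes, whereas most transport genes have neither.

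The stretches below run 5′ to 3′ on the strand of the gene, from 100 bases before to 12 bases after the start site, with CHR and CCAAT words in capitals, on either strand (the reverse of CCAAT reads ATTGG, that of TTTGAA reads TTCAAA). KIF18B (chr17:44947762-44947873, minus strand), KIF14 (chr1:200620740-200620851, minus), KIFC1 (chr6:33391723-33391834, plus) and KIF4A (chrX:70290004-70290115, plus) are shown because they were among the mitotic motors with the largest nutlin-3a differences in at least one line. KIF2C (chr1:44739737-44739848, plus), whose differences were as large, holds neither word. KIF22 (chr16:29790651-29790762, plus) and KIF18A (chr11:28108145-28108256, minus) are shown because their differences were among the smallest of the mitotic class. KIF20A (chr5:138179012-138179123, plus) is a mitotic gene with no CHR word in its window. KIF1C (chr17:4997850-4997961, plus) and KIF3B (chr20:32277551-32277662, plus) stand for the transport class.
KIF18B: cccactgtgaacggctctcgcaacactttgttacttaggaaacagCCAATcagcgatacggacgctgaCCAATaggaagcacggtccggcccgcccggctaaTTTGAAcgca
KIF14: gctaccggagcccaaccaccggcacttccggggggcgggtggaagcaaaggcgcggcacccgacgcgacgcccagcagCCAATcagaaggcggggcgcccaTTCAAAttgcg
KIFC1: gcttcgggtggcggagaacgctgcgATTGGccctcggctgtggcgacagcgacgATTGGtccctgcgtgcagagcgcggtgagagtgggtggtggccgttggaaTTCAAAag
KIF4A: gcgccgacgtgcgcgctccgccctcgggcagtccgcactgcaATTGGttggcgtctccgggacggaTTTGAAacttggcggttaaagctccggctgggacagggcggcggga
KIF2C: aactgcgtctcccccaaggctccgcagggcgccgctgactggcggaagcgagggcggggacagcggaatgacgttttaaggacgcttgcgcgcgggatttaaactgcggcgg
KIF22: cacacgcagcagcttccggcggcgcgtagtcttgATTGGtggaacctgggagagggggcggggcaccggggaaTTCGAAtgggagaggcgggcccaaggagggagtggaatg
KIF18A: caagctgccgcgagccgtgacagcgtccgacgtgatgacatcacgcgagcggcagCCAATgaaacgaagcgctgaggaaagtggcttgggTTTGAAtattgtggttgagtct
KIF20A: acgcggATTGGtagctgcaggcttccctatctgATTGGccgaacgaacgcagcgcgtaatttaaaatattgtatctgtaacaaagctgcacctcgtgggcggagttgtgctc
KIF1C: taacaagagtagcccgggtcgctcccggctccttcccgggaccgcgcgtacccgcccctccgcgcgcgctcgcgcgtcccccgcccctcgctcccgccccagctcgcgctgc
KIF3B: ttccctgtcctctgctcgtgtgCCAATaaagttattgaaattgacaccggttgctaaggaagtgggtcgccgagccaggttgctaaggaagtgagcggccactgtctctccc
In the 10 mitotic genes with both words, a CCAAT word lay upstream of the CHR word in the same window in every case, with 4 (KIF23) to 117 (KIF20B) bases between the nearest pair and a median of 24.5. In KIF20B the CHR words began 25 and 31 bases into the transcript, and the CCAAT words lay 98 and 131 bases before the start. KIF2C had neither word in its window. KIF24, of the third class, had a CHR word at base 2 and 3 CCAAT words upstream of it.

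Mitotic kinesin transcripts were far lower with nutlin-3a in both cell lines, and transport kinesin transcripts differed little. In LIMA1 shRNA cells 13 of the 13 measured mitotic kinesins were called lower and 0 higher, where 6.08% of the 12742 measured genes were lower and 7.29% higher. In control shRNA cells 13 of 13 were again called lower, where 5.64% of measured genes were lower and 5.54% higher. Of the 11 measured transport kinesins 0 were called in either direction in either line. KIF2A, placed in the third class though it also acts at spindle poles, was not called, at -0.33 (LIMA1 shRNA) and -0.32 (control shRNA). In LIMA1 shRNA cells the median difference was -5.04 for the mitotic class, -0.02 for the transport class and -0.02 for all measured genes. In control shRNA cells these medians were -4.67, 0.10 and -0.02. The mitotic median minus the transport median was -5.02 in LIMA1 shRNA cells and -4.76 in control shRNA cells. Of the 13 mitotic genes, 5 (KIF15, KIF18B, KIF2C, KIF4B and KIFC1) averaged under 30 normalized counts with nutlin-3a and so were measured through their untreated level. The other 8 averaged at least 30 in both conditions. These are bulk samples, in which fewer cells in mitosis and less RNA per cell cannot be told apart.

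**Figure D2:**
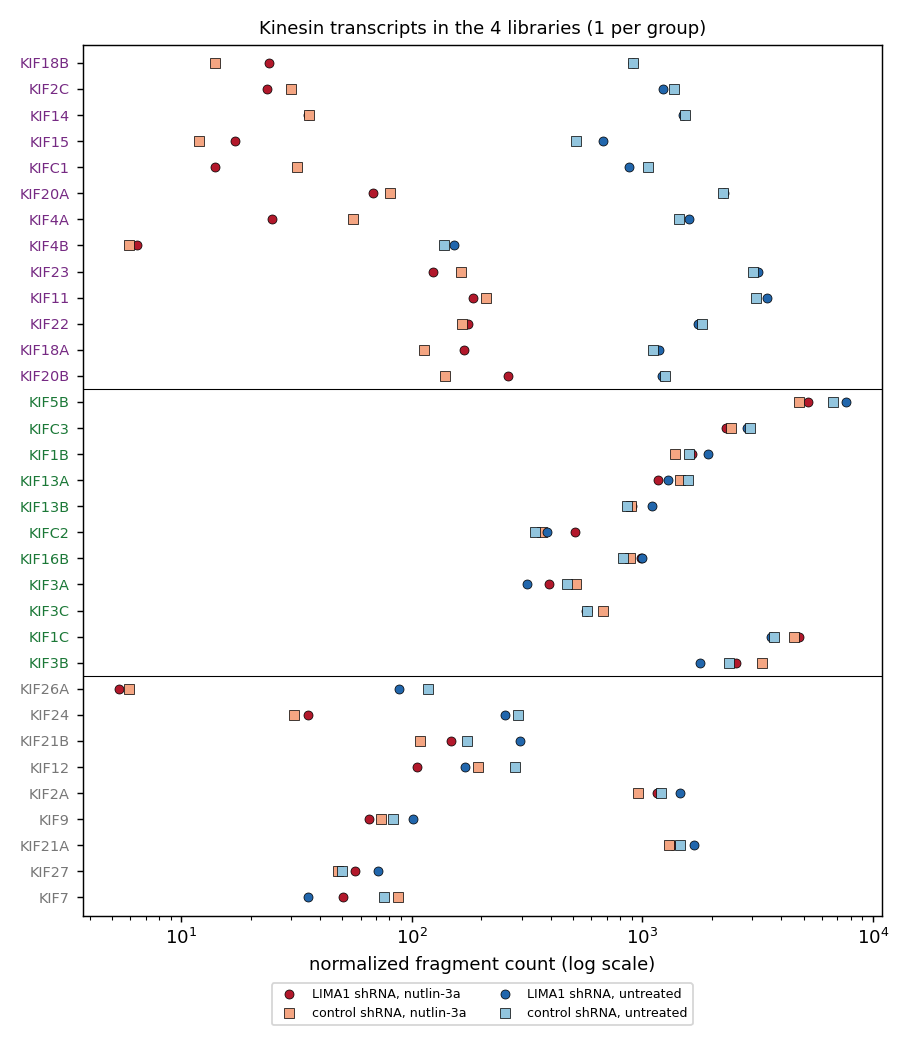
Normalized fragment counts (log axis) of the 33 measured kinesins in the 4 libraries, with mitotic genes on top, transport genes in the middle and the third class at the bottom. For every mitotic gene both nutlin-3a libraries lie to the left of both untreated ones, while the transport genes lie close together.

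Among motors that build the spindle, KIF11, the plus-end motor that pushes the poles apart, had 183 and 209 normalized counts in nutlin-3a-treated LIMA1 shRNA and control shRNA cells, against 3468 and 3108 in the untreated LIMA1 shRNA and control shRNA cells. Its difference was -4.23 (-4.47 to -4.02) in LIMA1 shRNA cells and -3.88 (-4.10 to -3.69) in control shRNA cells. KIF15, which can keep the poles apart beside KIF11, had 17.2 (LIMA1 shRNA) and 11.9 (control shRNA) with nutlin-3a, against 673 (LIMA1 shRNA) and 515 (control shRNA) untreated. That put KIF15 at -5.21 (-6.11 to -4.58) in LIMA1 shRNA cells and -5.32 (-6.39 to -4.62) in control shRNA cells, with 16 and 12 fragments in the nutlin-3a libraries of LIMA1 shRNA and control shRNA cells. KIFC1, a minus-end motor that bundles microtubules and focuses the poles, had 13.9 (LIMA1 shRNA) and 31.8 (control shRNA) with nutlin-3a, against 873 (LIMA1 shRNA) and 1054 (control shRNA) untreated. It differed by -5.87 (-6.88 to -5.19) in LIMA1 shRNA cells and -5.01 (-5.61 to -4.55) in control shRNA cells. In KIF11, KIF15 and KIFC1 each nutlin-3a library was below each untreated one by more than the counting error.

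Motors that act on chromosomes and microtubule ends differed widely in size. KIF18B, which shortens astral microtubules, had 24.1 (LIMA1 shRNA) and 13.9 (control shRNA) with nutlin-3a, against 914 (LIMA1 shRNA) and 911 (control shRNA) untreated, or -5.19 (-5.96 to -4.67) in LIMA1 shRNA cells and -5.93 (-6.91 to -5.28) in control shRNA cells. The value in control shRNA cells was the largest of the class there, but it rests on 14 fragments, and with a pseudocount of 30 KIF14 (-4.57) and KIF2C (-4.55) were lower than KIF18B (-4.42). The KIF18B values were not whole fragments in 3 of the 4 libraries, so its counts are less certain. KIF2C, the kinetochore depolymerase also known as MCAK, had 23.6 (LIMA1 shRNA) and 29.8 (control shRNA) with nutlin-3a, against 1230.0 (LIMA1 shRNA) and 1371 (control shRNA) untreated, a difference of -5.65 (-6.38 to -5.10) in LIMA1 shRNA cells and -5.48 (-6.10 to -5.00) in control shRNA cells. KIF18A, which damps chromosome movement at the metaphase plate, kept more of its transcript, with 168 (LIMA1 shRNA) and 113 (control shRNA) with nutlin-3a, against 1181 (LIMA1 shRNA) and 1117 (control shRNA) untreated. It was at -2.80 (-3.06 to -2.57) in LIMA1 shRNA cells and -3.29 (-3.59 to -3.02) in control shRNA cells, and its untreated level was 7.02 and 9.87 times that with nutlin-3a in LIMA1 shRNA and control shRNA cells. KIF22, a chromokinesin that pushes chromosome arms outward, was alike, with 175 (LIMA1 shRNA) and 165 (control shRNA) with nutlin-3a, against 1749 (LIMA1 shRNA) and 1806 (control shRNA) untreated, or -3.32 (-3.56 to -3.09) in LIMA1 shRNA cells and -3.45 (-3.69 to -3.22) in control shRNA cells.

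KIF4A, the chromokinesin that sets midzone length together with PRC1, had 24.7 and 55.6 normalized counts in nutlin-3a-treated LIMA1 shRNA and control shRNA cells, against 1592 and 1437 in the untreated LIMA1 shRNA and control shRNA cells. Its difference was -5.96 (-6.67 to -5.42) in LIMA1 shRNA cells and -4.67 (-5.10 to -4.31) in control shRNA cells, and the value in LIMA1 shRNA cells was the largest of any mitotic kinesin there, also with a pseudocount of 30 (-4.89). KIF4B, a close copy of KIF4A, had 6.43 (LIMA1 shRNA) and 5.96 (control shRNA) with nutlin-3a, against 152 (LIMA1 shRNA) and 139 (control shRNA) untreated, or -4.37 (-6.03 to -3.41) in LIMA1 shRNA cells and -4.33 (-6.01 to -3.38) in control shRNA cells. In the GENCODE 29 transcripts 606 of the 4329 stretches of 50 bases in KIF4B (14.0%) also occur in KIF4A, so reads from these stretches cannot be assigned to one gene, and KIF4B is reported as uncertain.

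The motors of the midzone and of cytokinesis were also lower. KIF23, which forms centralspindlin with RACGAP1, had 123 (LIMA1 shRNA) and 163 (control shRNA) with nutlin-3a, against 3174 (LIMA1 shRNA) and 3031 (control shRNA) untreated, a difference of -4.68 (-4.97 to -4.42) in LIMA1 shRNA cells and -4.21 (-4.45 to -3.99) in control shRNA cells. KIF20A, which carries the chromosomal passenger complex to the midzone, had 67.5 (LIMA1 shRNA) and 80.4 (control shRNA) with nutlin-3a, against 2260.1 (LIMA1 shRNA) and 2238 (control shRNA) untreated and differed by -5.04 (-5.45 to -4.70) in LIMA1 shRNA cells and -4.78 (-5.14 to -4.48) in control shRNA cells. KIF14, which recruits citron kinase to the midbody, had 35.4 (LIMA1 shRNA) and 35.7 (control shRNA) with nutlin-3a, against 1493 (LIMA1 shRNA) and 1534 (control shRNA) untreated, and its differences of -5.36 and -5.38 in LIMA1 shRNA and control shRNA cells were nearly equal. KIF20B, a cytokinesis motor also known as MPP1, had the smallest differences of the class. It stood at 260.5 (LIMA1 shRNA) and 139 (control shRNA) with nutlin-3a, against 1221 (LIMA1 shRNA) and 1258 (control shRNA) untreated, or -2.22 (-2.43 to -2.03) in LIMA1 shRNA cells and -3.17 (-3.44 to -2.93) in control shRNA cells.

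Across the class the untreated level was 4.69 (KIF20B) to 64.6 (KIF4A) times that with nutlin-3a in LIMA1 shRNA cells, and 9.05 (KIF20B) to 65.4 (KIF18B) times in control shRNA cells. The highest nutlin-3a level of any mitotic kinesin was 260.5 normalized counts in LIMA1 shRNA cells (KIF20B) and 209 in control shRNA cells (KIF11).

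**Figure D3:**
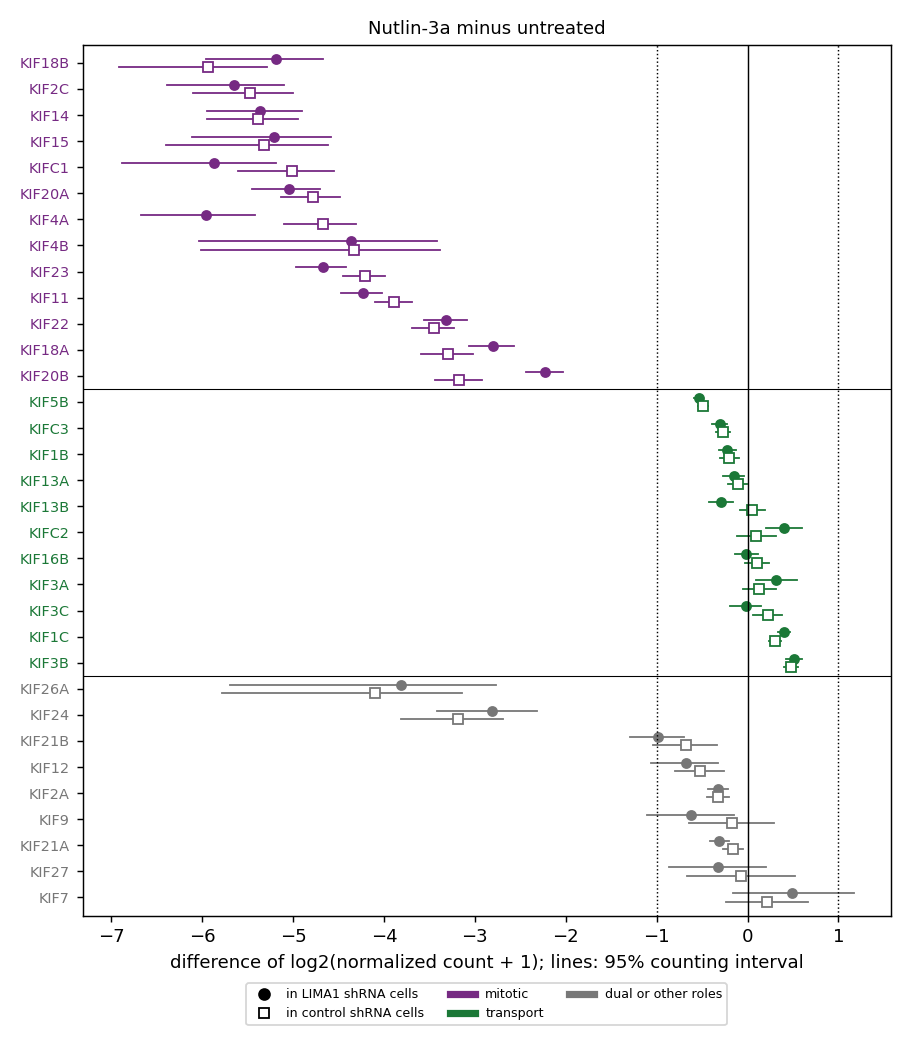
Differences of log2(normalized count + 1) between nutlin-3a-treated and untreated cells for the 33 measured kinesins, as filled circles in LIMA1 shRNA cells and open squares in control shRNA cells, with 95% counting intervals as lines and dotted lines at -1 and 1. The 13 mitotic kinesins lie at -2.22 or lower in both lines, and the 11 transport kinesins lie between -0.54 and 0.51.

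Transport motors differed by less than the size of a call, as did most measured genes. KIF5B, the ubiquitous heavy chain of conventional kinesin, was the most abundant kinesin by count, with 5241 and 4776 normalized counts in nutlin-3a-treated LIMA1 shRNA and control shRNA cells, against 7619 and 6697 in the untreated LIMA1 shRNA and control shRNA cells. It was lower by a small but well-counted amount, at -0.54 (-0.59 to -0.49) in LIMA1 shRNA cells and -0.49 (-0.54 to -0.43) in control shRNA cells. KIFC3, a minus-end motor linked to apical transport and cell junctions, was at -0.31 and -0.27 in LIMA1 shRNA and control shRNA cells, and KIF1B, a carrier of mitochondria and vesicles, at -0.22 and -0.20. On the high side was KIF3B, with KIF3A a motor subunit of the heterotrimeric kinesin of cilia. KIF3B had 2537 and 3304 normalized counts in nutlin-3a-treated LIMA1 shRNA and control shRNA cells, against 1777 and 2373 in the untreated LIMA1 shRNA and control shRNA cells, a difference of 0.51 (0.42 to 0.60) in LIMA1 shRNA cells and 0.48 (0.40 to 0.55) in control shRNA cells. KIF1C, which carries vesicles and integrins, had 4785 (LIMA1 shRNA) and 4568 (control shRNA) with nutlin-3a, against 3622 (LIMA1 shRNA) and 3706 (control shRNA) untreated, or 0.40 (0.34 to 0.47) in LIMA1 shRNA cells and 0.30 (0.24 to 0.36) in control shRNA cells. KIFC2, a motor studied in neurons, was at 0.40 and 0.10, and the vesicle motors KIF13A and KIF13B at -0.15 and -0.29 in LIMA1 shRNA cells and -0.11 and 0.05 in control shRNA cells. KIF3A was at 0.32 and 0.13, KIF3C at -0.02 and 0.22 and the endosome motor KIF16B at -0.01 and 0.10 in LIMA1 shRNA and control shRNA cells. The counting interval of the difference lay above 0 for 4 and below 0 for 5 of the 11 transport kinesins in LIMA1 shRNA cells, and for 3 and 4 in control shRNA cells.

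In the third class 2 of 9 measured genes were called lower and 0 higher in each line. Of all measured genes 6.08% (LIMA1 shRNA) and 5.64% (control shRNA) were lower, and 7.29% and 5.54% higher. KIF24, a centriole protein that takes microtubules apart and restrains cilium formation, had 35.4 (LIMA1 shRNA) and 30.8 (control shRNA) with nutlin-3a, against 254 (LIMA1 shRNA) and 288 (control shRNA) untreated, a difference of -2.81 (-3.42 to -2.32) in LIMA1 shRNA cells and -3.19 (-3.81 to -2.69) in control shRNA cells. KIF26A, a kinesin whose motor domain lacks ATPase activity, had 5.36 (LIMA1 shRNA) and 5.96 (control shRNA) with nutlin-3a, against 88.1 (LIMA1 shRNA) and 118 (control shRNA) untreated, or -3.81 (-5.70 to -2.76) in LIMA1 shRNA cells and -4.09 (-5.78 to -3.14) in control shRNA cells. KIF26A averaged under 30 normalized counts with nutlin-3a and was measured through its untreated level, and it had no CHR or CCAAT word in its window. KIF2A, a depolymerase that acts at spindle poles and in non-dividing cells, was at -0.33 and -0.32 in LIMA1 shRNA and control shRNA cells, far from its mitotic relative KIF2C. KIF21B, which limits microtubule growth, was at -0.99 and -0.68, and KIF7, a ciliary regulator of Hedgehog signalling, at 0.49 and 0.21. KIF9, KIF12, KIF21A and KIF27 were at -0.62, -0.68, -0.31 and -0.32 in LIMA1 shRNA cells and -0.18, -0.53, -0.16 and -0.07 in control shRNA cells.

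The make-up of the kinesin pool differed accordingly. Mitotic kinesins gave 4.46% (exact binomial 95% interval 4.20% to 4.73%) of all kinesin fragments in nutlin-3a-treated LIMA1 shRNA cells and 4.19% (3.94% to 4.44%) in treated control shRNA cells. They gave 42.9% (42.4% to 43.3%) and 43.1% (42.7% to 43.6%) in the untreated LIMA1 shRNA and control shRNA cells. In LIMA1 shRNA cells the summed mitotic level was 1123 normalized counts with nutlin-3a, against 19982 untreated, and the summed transport level 21059, against 22475 untreated. In control shRNA cells the mitotic sum was 1054 with nutlin-3a, against 19517 untreated, and the transport sum 21299, against 21988 untreated.

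**Figure D4:**
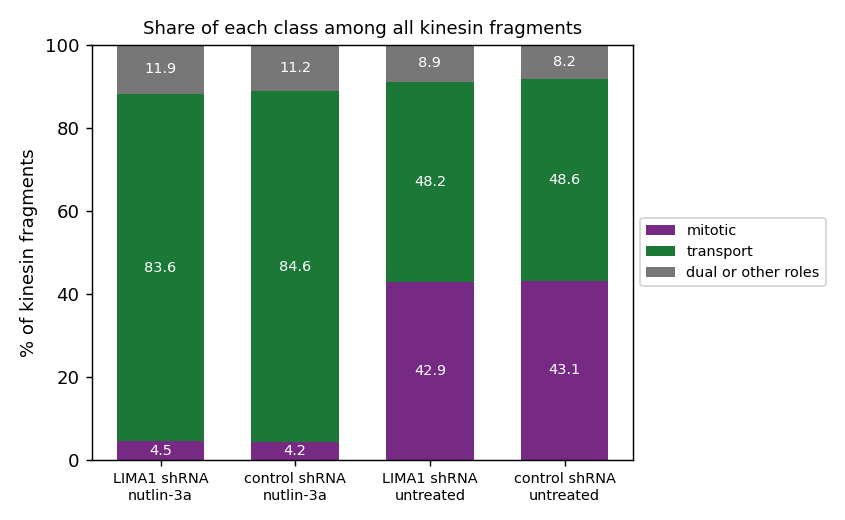
Share of the kinesin fragments of each library (%) from mitotic, transport and other kinesins, over all 42 rows. The mitotic share is 4.46% and 4.19% with nutlin-3a, against 42.9% and 43.1% untreated.

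Per kilobase of the longest protein-coding transcript in GENCODE 29, KIF5B was the most abundant measured kinesin in all 4 libraries, at 892 (LIMA1 shRNA) and 813 (control shRNA) normalized counts per kb with nutlin-3a and 1296 (LIMA1 shRNA) and 1140 (control shRNA) untreated. Of the mitotic class KIF23 ranked highest in untreated cells, at 853 per kb (LIMA1 shRNA, place 2 of 33) and 814 per kb (control shRNA, place 3). With nutlin-3a it stood at 33.1 per kb (LIMA1 shRNA, place 19) and 43.7 per kb (control shRNA, place 16). The highest-ranked mitotic kinesin with nutlin-3a was KIF22, at 69.8 per kb (LIMA1 shRNA, place 13) and 65.8 per kb (control shRNA, place 15).

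Most transcripts of the proteins that work with mitotic kinesins were lower too. Of 16 partner genes, all measured, 14 were called lower and 0 higher in each line, where 6.08% (LIMA1 shRNA) and 5.64% (control shRNA) of all measured genes were lower, with a median of -4.06 in the LIMA1 shRNA line and -4.01 in the control shRNA line. PLK1, the kinase that docks on KIF20A, was at -5.72 in the LIMA1 shRNA line and -5.34 in the control shRNA line. Citron kinase (CIT), AURKB of the chromosomal passenger complex and its partner BIRC5 were at -5.06, -6.09 and -5.57 in LIMA1 shRNA cells and -5.17, -4.81 and -4.81 in control shRNA cells. AURKB averaged under 30 normalized counts with nutlin-3a and was measured through its untreated level. The kinesin CENPE, whose symbol falls outside the naming rule and which is given for that reason, was at -3.96 in LIMA1 shRNA cells and -4.12 in control shRNA cells. The 2 genes not called were MAPRE1, a microtubule end-binding protein gene, and the importin gene KPNB1, at -0.27 and -0.86 in LIMA1 shRNA cells and -0.24 and -0.80 in control shRNA cells. Of 12 partners with a promoter window, 10 held a CHR word, against 15.6% of the 9157 measured genes with a window.

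Most cargo adaptors, and all measured genes of the opposing motor dynein, differed by less than the size of a call, as did most measured genes. Of 18 measured adaptor genes 2 were called higher in LIMA1 shRNA cells, where 7.29% of measured genes were higher, and 1 in control shRNA cells, where 5.54% were, and 0 were lower. The adaptor medians were 0.14 in LIMA1 shRNA cells and 0.24 in control shRNA cells, and the share called in control shRNA cells was close to that of all genes. FEZ1, an adaptor of conventional kinesin, had 59.0 (LIMA1 shRNA) and 111 (control shRNA) with nutlin-3a, against 4.95 (LIMA1 shRNA) and 19.8 (control shRNA) untreated, a difference of 3.33 (2.27 to 5.25) in LIMA1 shRNA cells and 2.43 (1.81 to 3.24) in control shRNA cells. MAPK8IP2, a JIP scaffold, had 38.6 (LIMA1 shRNA) and 51.6 (control shRNA) with nutlin-3a, against 10.9 (LIMA1 shRNA) and 32.0 (control shRNA) untreated, or 1.74 (0.82 to 2.95) in LIMA1 shRNA cells and 0.67 (0.04 to 1.36) in control shRNA cells. Both genes averaged under 30 normalized counts untreated and were measured through their nutlin-3a level, and with a pseudocount of 30 MAPK8IP2 in LIMA1 shRNA cells was at 0.75 and no longer called. The mitochondrial adaptor TRAK1 was at 0.86 in LIMA1 shRNA cells and 0.77 in control shRNA cells, under the size of a call. Of 20 measured dynein and dynactin genes 0 were called in either line, where 6.08% (LIMA1 shRNA) and 5.64% (control shRNA) of measured genes were lower. The dynein and dynactin medians were 0.06 and -0.05 in LIMA1 shRNA and control shRNA cells. The dynactin subunit gene DCTN5 and NDE1, a dynein regulator used in mitosis, were at 0.74 and -0.38 in LIMA1 shRNA cells and 0.73 and -0.76 in control shRNA cells.

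LIMA1 shRNA went with small differences in the kinesins of untreated cells. Of the 13 mitotic and 11 transport kinesins 0 were called, where 1.04% of measured genes were higher and 2.05% lower. The class medians were 0.01 (mitotic) and -0.0025 (transport), against 0.02 for all measured genes. In the third class KIF7 was called lower, with 35.6 normalized counts in LIMA1 shRNA cells, against 75.4 in control shRNA cells, or -1.06 (counting interval -1.69 to -0.50). KIF7 was at -0.68, and not called, with a pseudocount of 30. The largest mitotic difference was at KIF15, 0.39 (counting interval 0.22 to 0.55), and the largest transport difference at KIF3A, -0.57 (counting interval -0.78 to -0.37).

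With nutlin-3a, 2 of 13 mitotic kinesins were called lower and 0 higher in LIMA1 shRNA cells, where 1.94% of measured genes were lower and 1.26% higher. KIF4A had 24.7 normalized counts in LIMA1 shRNA cells, against 55.6 in control shRNA cells, or -1.14 (counting interval -1.94 to -0.45). KIFC1 had 13.9 in LIMA1 shRNA cells, against 31.8 in control shRNA cells, or -1.13 (counting interval -2.24 to -0.22). These levels rest on 13 to 56 fragments, and neither gene was called with a pseudocount of 30, at -0.65 and -0.49. In the other direction KIF20B had 260.5 in LIMA1 shRNA cells, against 139 in control shRNA cells, a difference of 0.90 (counting interval 0.60 to 1.22), and KIF18A differed by 0.57 (counting interval 0.22 to 0.93). KIF18B was at 0.75 (counting interval -0.27 to 1.84), so its direction was within counting error. The class medians were -0.01 for mitotic and 0.0097 for transport kinesins, and 0 of 11 transport kinesins were called. Of the 16 mitotic partners AURKB was called lower, at -1.22 (counting interval -2.44 to -0.24) on 11 fragments in LIMA1 shRNA cells and 29 in control shRNA cells, and was at 0.06 untreated. Of the 18 adaptors 0 were called with nutlin-3a and 2 were called lower untreated, where 2.05% of measured genes were lower. The 2 adaptors were FEZ1, at -1.81 (counting interval -3.76 to -0.55) on 5 fragments in LIMA1 shRNA cells and 21 in control shRNA cells, and MAPK8IP2, at -1.48 (counting interval -2.69 to -0.54) on 11 and 34 fragments in the LIMA1 shRNA and control shRNA cells. With a pseudocount of 30, AURKB was at -0.49, FEZ1 at -0.51 and MAPK8IP2 at -0.60, and none of these 3 was called. Of the 20 dynein and dynactin genes 0 were called, with the dynein heavy chain gene DYNC1H1 at 0.99 with nutlin-3a and 0.69 untreated.

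**Figure D5:**
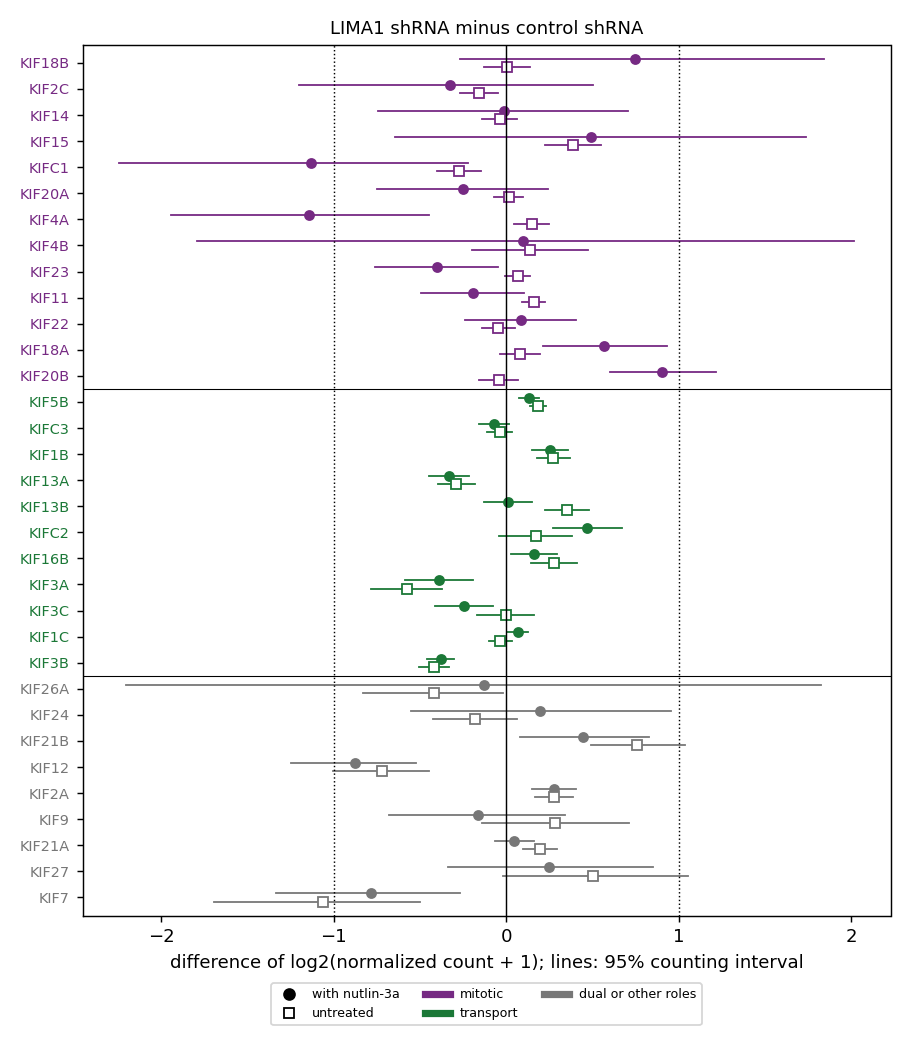
Differences of log2(normalized count + 1) between LIMA1 shRNA and control shRNA cells for the 33 measured kinesins, as filled circles with nutlin-3a and open squares in untreated cells, with 95% counting intervals as lines and dotted lines at -1 and 1. Mitotic kinesins spread from -1.14 to 0.90 with nutlin-3a and from -0.27 to 0.39 untreated, and KIF3A and KIF3B lie below 0 in both.

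Some kinesins differed the same way between the lines in both treatments, by more than the counting error. The same count over all measured genes was not made, so no trait of kinesins is read from it. Genes with many fragments leave out 0 at small differences, such as KIF5B at 0.13 (0.08 to 0.19) with nutlin-3a. Of 11 transport kinesins 3 lay above 0 in both (KIF16B, KIF1B and KIF5B) and 3 below (KIF13A, KIF3A and KIF3B). Under upper-quartile or equal-total scaling KIF16B no longer lay above 0 in both, and KIFC3 lay below. KIF3A had 393 normalized counts in LIMA1 shRNA cells against 515 in control shRNA cells with nutlin-3a, and 316 in LIMA1 shRNA cells against 470.4 in control shRNA cells untreated. KIF3B was at -0.38 with nutlin-3a and -0.42 untreated, so both motor subunits of ciliary kinesin were lower in the LIMA1 shRNA line, by less than the size of a call. KIFAP3, the subunit that links them to cargo, was at -0.34 (-0.54 to -0.14) with nutlin-3a and -0.13 (-0.31 to 0.05) untreated. Its untreated direction was thus within counting error. In the third class KIF21B and KIF2A lay above 0 in both, at 0.45 and 0.28 with nutlin-3a and 0.76 and 0.28 untreated. KIF12 and KIF7 lay below, KIF12 at -0.88 with nutlin-3a and -0.72 untreated. Of 13 mitotic kinesins 1, KIFC1, lay below 0 in both. A lasting difference between the 2 lines and an effect of the LIMA1 shRNA cannot be told apart here.

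The nutlin-3a difference of the LIMA1 shRNA line less that of the control shRNA line had a median of -0.04 for mitotic and -0.03 for transport kinesins, against 0.0087 for all measured genes. Of the 13 mitotic kinesins 1 reached a size of 1, KIF4A at -1.29 (counting SE 0.36), where 0.816% of measured genes were lower by that size and 1.27% higher. With a pseudocount of 30 KIF4A was at -0.79, under that size, and KIFC1 at -0.23. At the pseudocount of 1, KIFC1 was at -0.86 (SE 0.48), KIF23 at -0.46 (SE 0.18) and KIF11 at -0.35 (SE 0.15). KIF20B, at 0.95 (SE 0.16), and KIF18A, at 0.49 (SE 0.19), had the opposite sign. The transport kinesins lay between -0.34 (KIF13B) and 0.30 (KIFC2), and both of these genes had values that were not whole fragments in at least 3 libraries. Values above 1000 fragments were not checked for this.

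The 9 kinesins under the mean of 30 were KIF1A, KIF2B, KIF5A, KIF5C, KIF6, KIF17, KIF19, KIF25 and KIF26B. Just inside it were KIF26A (mean 54.3) and KIF27 (56.4), and just outside KIF17 (16.6) and KIF5C (16.3). KIF2B, a mitotic depolymerase, had 0 fragments in each library, which, at 3 fragments, allows up to 3.22 (LIMA1 shRNA) and 2.98 (control shRNA) normalized counts with nutlin-3a and 2.97 (LIMA1 shRNA) and 2.83 (control shRNA) untreated. KIF4A, KIF15, KIF18A, KIF20A, KIF24, KIF2A, KIF7, KIF9 and KIFC2 each overlap another protein-coding gene in GENCODE 29. The sources used here do not say whether counting used strand, so reads of such overlaps cannot be told apart.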

How the data were processed

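RNA of 4 A549 groups, 1 library each, was compared. The authors deposited a signal per gene, found from the values to be mostly whole fragments scaled by 1 factor in each library: 85.5% to 86.3% of values between 0.5 and 1000 fragments lay within 0.1 of a whole number, under the 95% needed, so no count test was run. Per the submitters' processing notes, the build was hg19, and Bowtie2 2.0.12, Cuffnorm 2.2.1 and bcl2fastq 1.8.3 were among the tools. The sources used here name no gene annotation.

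Groups were taken from the sample titles. Measured genes had a mean of at least 30 normalized counts (12742 of 42113). Differences used a pseudocount of 1, which understates the change of low genes, and a size of 1. Fragment counts were values divided by the step of 1 fragment (0.943 to 1.07), rounded. Every measured kinesin was described, up to 4 members of each of 3 partner lists with the largest differences were named (CENPE, KIFAP3, MAPRE1 and KPNB1 were added after their values were seen), and LIMA1 and CDKN1A checked the labels. Members, classes, lists and motifs were chosen with earlier results of these data known. Differences and intervals were run on simulated counts that held counting error only. This checks the calculation and says nothing on variation between libraries. The labels name no molecular identifiers, so intervals cover counting error only. Alternatives were other pseudocounts, scalings, filters, sizes and class assignments. Python 3.11.15, numpy 2.4.6, pandas 2.3.3, scipy 1.17.1 and matplotlib 3.10.9 were used.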

Additional observations from a re-analysis of the deposited data

Results flagged for a closer look

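KIF4A moved in opposite directions under LIMA1 shRNA in the 2 treatments, each time with a counting interval that left out 0 on the deposited scale. The difference between LIMA1 shRNA and control shRNA cells was -1.14 with nutlin-3a (24.7 normalized counts in LIMA1 shRNA cells, 55.6 in control shRNA cells) and 0.15 untreated (1592 in LIMA1 shRNA cells, 1437 in control shRNA cells). The first value was -0.65 with a pseudocount of 30. Under upper-quartile scaling the untreated value was 0.09 (counting interval -0.0092 to 0.19) and with equal totals 0.10 (-0.0013 to 0.20), so there its direction was within counting error. The difference between the 2 treatments was not tested, since there is 1 library per group.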

How the results depend on the processing

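Of 133 recomputed values of the class counts, gaps and the mitotic response difference, 123 kept their value within 1.5 times (counts) or within the median counting half-width of the members. With a pseudocount of 30 the gap between mitotic and transport medians was -4.11 for nutlin-3a in the LIMA1 shRNA line and -4.08 in the control shRNA line, and 0 mitotic kinesins were called for LIMA1 shRNA with nutlin-3a. That last count was 4 at a size of 1.5-fold (2 higher, 2 lower) and 0 at 4-fold. Without a filter on low values 3 transport kinesins were called for nutlin-3a in each line (2 higher, 1 lower), 2 for LIMA1 shRNA in untreated cells and 3 with nutlin-3a, all of them genes with means under 30. With KIF21A and KIF21B counted as transport the gap for LIMA1 shRNA in untreated cells was -0.16, against 0.02. Upper-quartile and equal-total scaling turned no called kinesin and moved the median of all genes by at most 0.076. With a pseudocount of 30, 4 single kinesin values lost their call (KIF4A and KIFC1 for LIMA1 shRNA with nutlin-3a, KIF7 for LIMA1 shRNA untreated, KIF4A for the difference in response). Leaving out KIF4B, an alternative chosen after seeing the data, whole fragments only, a higher minimum mean, a pseudocount of 0.5 and KIF2A counted as mitotic changed none of these values beyond those bounds. With KIF2A counted as mitotic, that class held a gene not called with nutlin-3a in either line. No paired analysis was possible because each group has 1 library. Depth limits the mitotic kinesins with nutlin-3a, of which the lowest rest on 6 fragments.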

Other observations

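Among the kinesins under the mean of 30, KIF17, KIF26B and KIF5A had higher values with nutlin-3a in both lines. KIF17, a ciliary and dendritic transport motor, had 19.3 (LIMA1 shRNA) and 28.8 (control shRNA) with nutlin-3a, against 8.91 (LIMA1 shRNA) and 9.43 (control shRNA) untreated (normalized counts), a difference of 1.03 (counting interval -0.11 to 2.45) in the LIMA1 shRNA line and 1.51 (0.53 to 2.81) in the control shRNA line. KIF26B, a relative of KIF26A, had 18.2 (LIMA1 shRNA) and 13.9 (control shRNA) with nutlin-3a, against 1.98 (LIMA1 shRNA) and 2.83 (control shRNA) untreated, so that it lay on the other side of 0 from KIF26A in both lines. KIF5C, a neuronal heavy chain of conventional kinesin, had 6.43 (LIMA1 shRNA) and 16.9 (control shRNA) with nutlin-3a, against 12.9 (LIMA1 shRNA) and 29.2 (control shRNA) untreated, and KIF1A, an axonal vesicle motor, had 0 (LIMA1 shRNA) and 3.97 (control shRNA) with nutlin-3a, against 6.93 (LIMA1 shRNA) and 9.43 (control shRNA) untreated. KIF5A had 4.29 (LIMA1 shRNA) and 10.9 (control shRNA) with nutlin-3a, against 0.990 (LIMA1 shRNA) and 4.71 (control shRNA) untreated. The counting interval of its difference held 0 in both lines, at -1.22 to 7.74 (LIMA1 shRNA) and -0.43 to 3.09 (control shRNA). KIF6, KIF19 and KIF25 had at most 3.22 normalized counts in any library.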
